A study of Mus musculus with 16 samples.

Results

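Homeostatic microglia genes are the genes that resident microglia express at rest. Some of these genes, but not all, are commonly used to tell microglia from other macrophages. Here the homeostatic microglia genes are 9 genes, chosen by name. They are the receptors Csf1r, Cx3cr1, P2ry12, P2ry13 and Gpr34, the surface or secreted proteins Tmem119, Siglech and Olfml3, and the transcription factor Sall1. They are 9 of the 43346 rows of a gene count table from mouse spinal cord, and all 9 were among the 23769 rows that passed the filter on low counts. The mice of all 16 libraries were wild type (WT in the labels), female and 12 weeks old, with the strain spelled C57BL7J in the labels. In the injured animals the lumbar cord had been contused and compressed at L1/L3 with an 8 g Fejota clip, and tissue was taken on day 30. Injured cord was cut into pieces of 3 mm, named above (rostral), epicenter (at the lesion) and below (caudal), whereas in uninjured mice the 9 mm from T11 to S1 were processed as 1 piece. The labels give the uninjured libraries the same 30-day time. Each of the 4 groups held 4 libraries of whole tissue, in which more cells of a type and more RNA per cell cannot be told apart. Whether each library is a separate animal, and which segments are of 1 cord, is not stated in the labels, and the p-values cover only the variation among these libraries.

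Microglia are the resident macrophages of the central nervous system. They depend for survival on signalling through the receptor Csf1r, answer neurons through the fractalkine receptor Cx3cr1, and sense extracellular nucleotides through receptors of the P2Y family. The resting programme is known to be maintained by transforming growth factor beta signalling and by transcription factors that include Sall1 and PU.1, the product of Spi1. After injury of the cord, microglia proliferate and change shape, while monocytes from the blood enter the lesion and can become macrophages that share Csf1r, Cx3cr1 and other genes with microglia.

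The libraries held between 65.6 and 90.0 M (mega) counts each. CPM values are counts relative to scaled library totals, with group values as mean ± SD over 4 libraries. A gene was called, and is said to rise or fall, when its adjusted p in edgeR's quasi-likelihood test was under 0.05. Markers of the labelled tissue were present in each group: those of oligodendrocytes summed to 13242 to 21648 CPM over all libraries, and no neuron, astrocyte or oligodendrocyte marker was at 0 in a group. Below-injury replicate 3 stood apart from its group: on the first principal component of all tested genes, which held 66.4% of the variance, it lay at 112, beyond the epicenter libraries (87.9 to 105.2), while the other below libraries lay at -9.98, 34.2 and 42.1. Above-injury replicate 1 lay at -18.1, with the other above libraries between -54.9 and -53.3. Results that rest on either library are given with and without it.

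Both P2ry12 and P2ry13, receptors for adenosine diphosphate, sit next to each other on the minus strand of chromosome 3 (build mm10), P2ry13 at chr3:59207896-59210882 and P2ry12 at chr3:59216271-59262831, 5388 bases apart. They are shown here because the neighbours gave different values in injured cord. The 250 bases before the start of each gene, from RefSeq on assembly GRCm38.p6, read 5′ to 3′ on the minus strand, with capitals marking the motif GAGGAA, a core bound by PU.1:
P2ry13 (chr3:59210883-59211132): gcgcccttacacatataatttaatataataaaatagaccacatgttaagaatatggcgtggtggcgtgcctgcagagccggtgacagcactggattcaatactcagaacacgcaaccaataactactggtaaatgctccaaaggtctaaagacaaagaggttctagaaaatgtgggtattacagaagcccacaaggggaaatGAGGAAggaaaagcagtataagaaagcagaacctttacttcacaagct
P2ry12 (chr3:59262986-59263235): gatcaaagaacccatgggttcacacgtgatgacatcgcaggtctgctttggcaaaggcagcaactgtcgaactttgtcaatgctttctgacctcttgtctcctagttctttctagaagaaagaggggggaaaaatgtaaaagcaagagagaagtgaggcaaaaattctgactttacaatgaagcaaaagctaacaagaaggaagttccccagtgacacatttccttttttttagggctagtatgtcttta
GAGGAA occurs 1 time in the P2ry13 window, 48 bases before the start, and not in the P2ry12 window on either strand (both strands were searched for each motif). Promoter sequences were given for 6 of the 9 genes, in 8 windows, and this was the only match in them. Of 32851 promoters of the same length, 23.3% hold GAGGAA. The ETS-IRF composite motif, held by 2.30% of promoters, and the AP-1 motif TGACTCA, held by 4.46%, were in none of the 8 windows. A match describes letters and not binding, and the RefSeq start used for P2ry12 lies outside the transcripts of the GENCODE M21 annotation.

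At the epicenter 6 of the 9 genes rose against uninjured cord, none fell, and P2ry12, Sall1 and Siglech were not called. Over all tested rows 31.9% were called higher and 29.3% lower in that comparison, and the median log2 fold change was 1.71 for the 9 genes and 0.00 for all rows. In the segment above, 7 of the 9 were called higher and none lower, against 3.09% and 0.446% of all rows, with a median log2 fold change of 0.78. In the segment below, 6 were called higher and none lower, against 23.6% and 15.7% of all rows, with a median of 1.20. The 3 comparisons share the uninjured libraries. All epicenter libraries lay above all uninjured libraries for 7 of the 9 genes (30.5% of all rows did), all above libraries for 8 (13.4% of all rows) and all below libraries for 6 (22.9% of all rows).

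**Figure D1:**
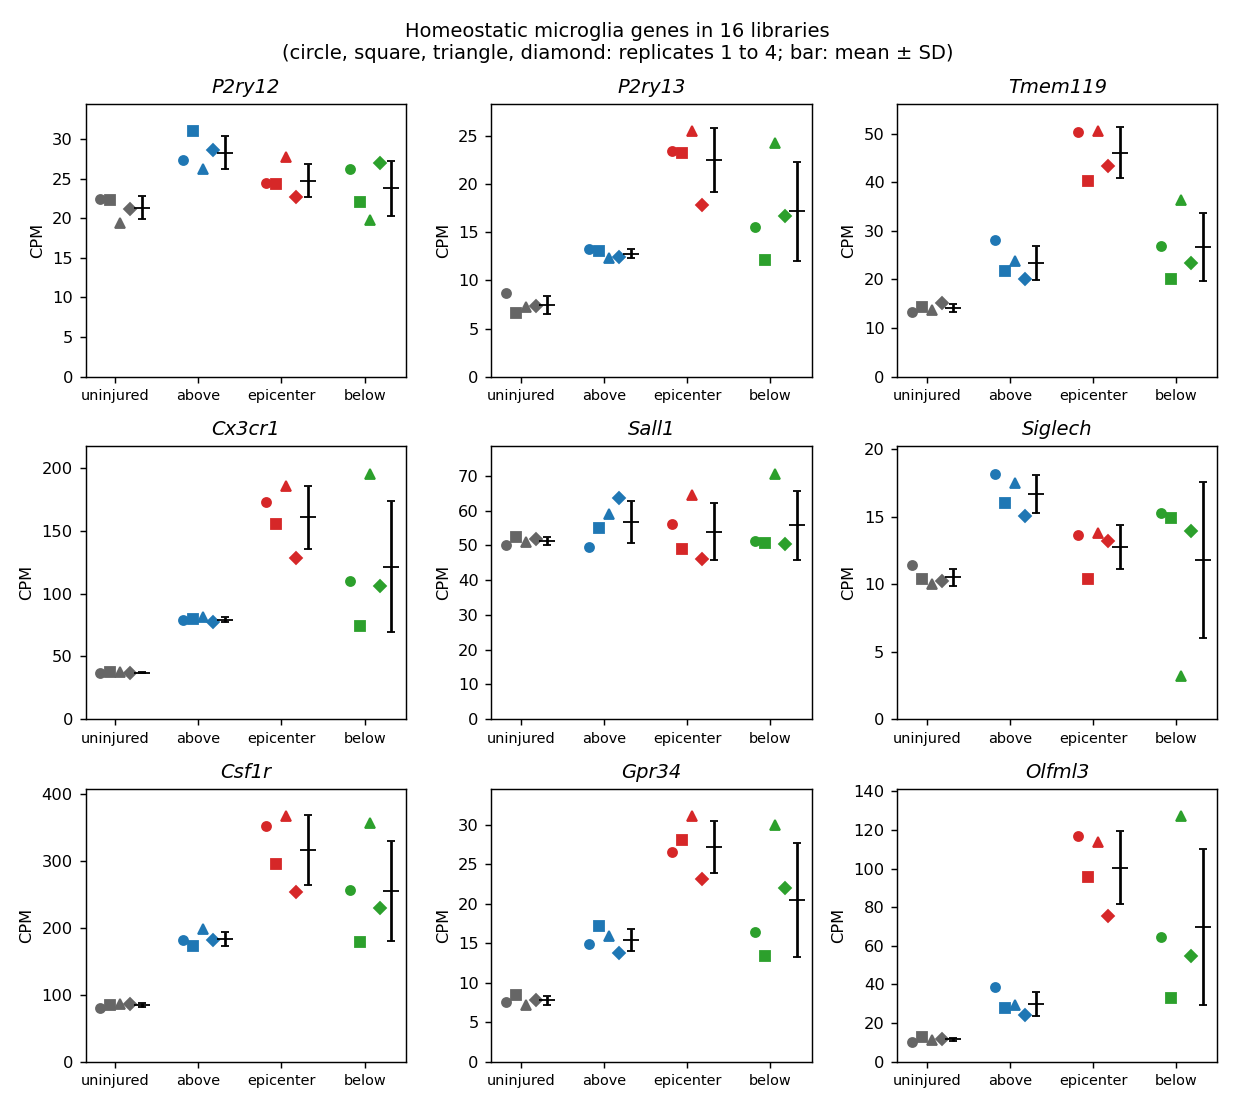
CPM of each of the 9 genes in the 16 libraries, by group, with the axis of each panel starting at 0; symbols mark replicates 1 to 4 and the bar is the mean ± SD (n = 4). Csf1r, Cx3cr1, Tmem119, P2ry13, Gpr34 and Olfml3 were highest on average at the epicenter, P2ry12 and Siglech above the injury, and Siglech was lowest in below-injury replicate 3 (3.19 CPM).

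**Figure D2:**
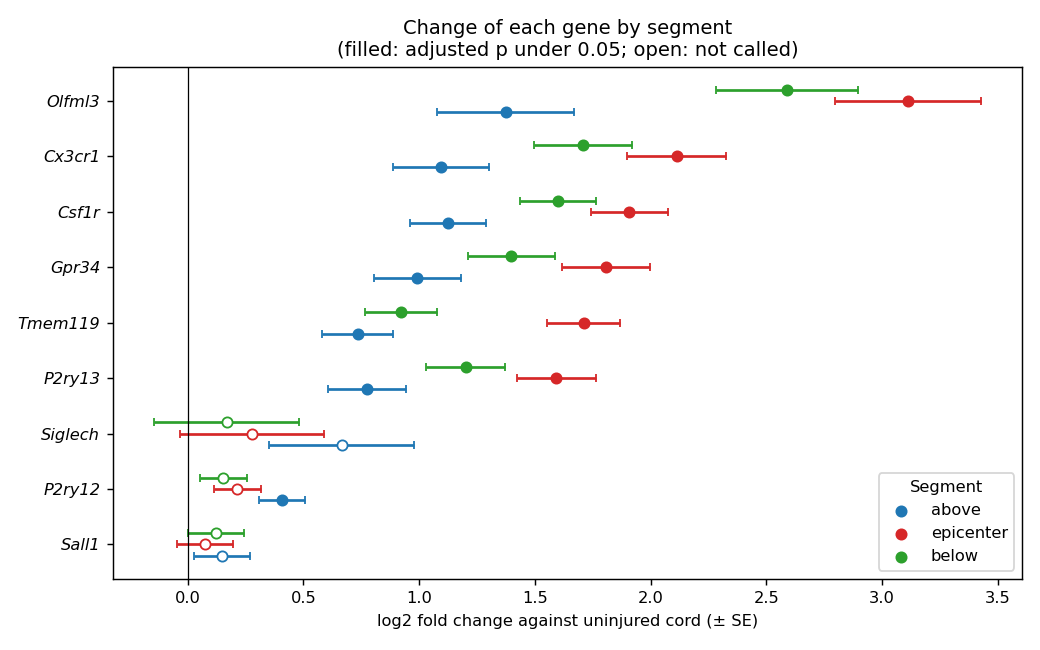
Log2 fold change (± SE) of each gene against uninjured cord for the segments above, at and below the injury; filled points passed an adjusted p under 0.05 and open points did not. Olfml3 had the highest value in each segment (1.37, 3.11 and 2.59), and Sall1 lay between 0.07 and 0.15.

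Csf1r is the receptor for colony-stimulating factor 1 and interleukin 34. The uninjured libraries held 80.2, 84.6, 86.1 and 86.4 CPM, those above the injury 183, 173, 198 and 183, the epicenter libraries 352, 295, 367 and 253, and those below 256, 179, 357 and 230. Every library of injured cord was higher than every uninjured one, and the epicenter did not overlap the segment above. Csf1r rose 3.76-fold at the epicenter (log2 fold change 1.91 ± 0.17 SE, edgeR adjusted p = 6.03e-07), 2.18-fold above (1.12 ± 0.16, adjusted p = 0.0014) and 3.03-fold below (1.60 ± 0.17, adjusted p = 5.8e-06). Of its annotated exonic bases within the range of the deposited table, 16.4% are shared with Hmgxb3 on the opposite strand. Hmgxb3 itself, at 40.7 CPM without injury and 38.0 CPM at the epicenter, was not called (log2 fold change -0.10, adjusted p = 0.302).

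Cx3cr1, the receptor for the neuronal chemokine fractalkine, followed Csf1r. The uninjured libraries lay between 36.7 and 37.6 CPM and the above libraries between 77.2 and 81.6. Epicenter libraries held 173, 155, 186 and 128 CPM, and below libraries 110.0, 73.9, 196 and 106. The segments above and at the epicenter did not overlap, whereas below-injury replicate 2 was lower than all above libraries and replicate 3 higher than all epicenter libraries. Cx3cr1 rose 4.33-fold at the epicenter (2.11 ± 0.21, adjusted p = 1.51e-06), 2.14-fold above (1.10 ± 0.21, adjusted p = 0.00816) and 3.27-fold below (1.71 ± 0.21, adjusted p = 2.18e-05).

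The ligands of these receptors did not all move the same way. Csf1, which signals through Csf1r, rose from 50.5 CPM in uninjured cord to 134 CPM at the epicenter (log2 fold change 1.40 ± 0.20, adjusted p = 2.98e-05), 106 CPM below and 88.8 CPM above (adjusted p = 0.000658 and 0.0308). Il34, the second ligand of Csf1r, rose from 13.3 to 30.6 CPM at the epicenter (1.21 ± 0.15, adjusted p = 1.07e-05) and to 25.3 CPM below (adjusted p = 0.000256). Above the injury Il34 was at 16.3 CPM and was not called (adjusted p = 0.41). Cx3cl1, which encodes fractalkine, fell from 203 to 132 CPM at the epicenter (-0.62 ± 0.17, adjusted p = 0.00461) and to 149 CPM below (-0.44 ± 0.17, adjusted p = 0.047). The fall of Cx3cl1 below was near the threshold, and the count of ligands and regulators lower there went from 1 to 0 when any 1 of 12 libraries was left out.

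The receptors P2ry12, P2ry13 and Gpr34, of the P2Y12-like family, gave different results. P2ry12, which directs microglial processes toward adenosine diphosphate released by damaged cells, held 22.5, 22.3, 19.4 and 21.1 CPM without injury, 27.4, 31.0, 26.2 and 28.6 above, 24.4, 24.3, 27.7 and 22.6 at the epicenter, and 26.2, 22.0, 19.8 and 27.0 below. The above libraries were all higher than the uninjured ones, the epicenter libraries were too by a small margin, and the below libraries overlapped them. Above the injury P2ry12 rose 1.33-fold (log2 fold change 0.41 ± 0.10, adjusted p = 0.034). That call was lost, at adjusted p of 0.0685 to 0.126, without any 1 of the uninjured libraries or without above replicate 1, 2 or 4, and its size stayed between 0.36 and 0.43 on the log2 scale. It was also lost with limma-voom (0.41, adjusted p = 0.062). At the epicenter the log2 fold change was 0.22 ± 0.10 (adjusted p = 0.0746), and below it was 0.16 ± 0.10 (adjusted p = 0.229). Without below replicate 3 the epicenter value was the same, 0.22, and was called (adjusted p = 0.0317).

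P2ry13 held between 6.57 and 8.73 CPM in uninjured cord and between 12.3 and 13.2 CPM above the injury. At the epicenter it held 23.4, 23.3, 25.5 and 17.8 CPM, and below 15.6, 12.2, 24.3 and 16.6. The epicenter libraries were all higher than those above, and below replicate 3 lay among the epicenter values. P2ry13 rose 3.02-fold at the epicenter (1.59 ± 0.17, adjusted p = 2.52e-06), 2.30-fold below (1.20 ± 0.17, adjusted p = 7.23e-05) and 1.71-fold above (0.78 ± 0.17, adjusted p = 0.018). The call above was lost without uninjured replicate 2, 3 or 4 or above replicate 1 (adjusted p = 0.0672, 0.0631, 0.0568 and 0.0529) and with limma-voom (adjusted p = 0.0595).

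Gpr34, a receptor for lysophosphatidylserine, held 7.57, 8.47, 7.23 and 7.76 CPM without injury, 14.9, 17.1, 15.9 and 13.8 above, 26.5, 28.0, 31.1 and 23.1 at the epicenter, and 16.4, 13.4, 29.9 and 22.0 below. No library of injured cord was as low as an uninjured one. It rose 3.50-fold at the epicenter (1.81 ± 0.19, adjusted p = 1.99e-06), 1.99-fold above (0.99 ± 0.19, adjusted p = 0.00768) and 2.64-fold below (1.40 ± 0.19, adjusted p = 4.48e-05).

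P2ry12 and P2ry13 both lie inside Med12l, a gene on the opposite strand that encodes a Mediator subunit. Med12l fell from 86.8 ± 3.08 CPM in uninjured cord to 39.5 ± 5.16 CPM at the epicenter (log2 fold change -1.14 ± 0.17, adjusted p = 5.24e-05). It was at 70.9 ± 9.32 CPM above and 64.5 ± 18.1 CPM below, and was not called there (adjusted p = 0.478 and 0.0572). In the ranges of the deposited table, none of the exonic bases of P2ry12 or P2ry13 are shared with exons of Med12l. The library kit does not mark the strand, and the part of unspliced Med12l reads in the counts of both genes was not tested. P2ry14, a receptor for nucleotide sugars in the same cluster, rose from 2.27 to 6.83 CPM at the epicenter (1.60 ± 0.24, adjusted p = 4.28e-05) and to 5.75 CPM below (1.34 ± 0.24, adjusted p = 0.000442). Gpr171, also in the cluster, had 0.433 CPM without injury, 0.451 CPM at the epicenter and no call (adjusted p = 0.895).

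Tmem119 encodes a membrane protein used as a marker of microglia, and it was the only one of the 9 called between the epicenter and the segment below. Uninjured libraries held 13.3, 14.3, 13.7 and 15.1 CPM, above libraries 28.2, 21.7, 23.9 and 20.0, epicenter libraries 50.4, 40.2, 50.6 and 43.3, and below libraries 27.0, 20.0, 36.3 and 23.5. The epicenter libraries were higher than every other library, below replicate 3 included, while the segments above and below overlapped. Tmem119 rose 3.27-fold at the epicenter (1.71 ± 0.16, adjusted p = 7.88e-07), 1.66-fold above (0.74 ± 0.15, adjusted p = 0.0146) and 1.89-fold below (0.92 ± 0.15, adjusted p = 0.000306). Without uninjured replicate 1 or 3 or above replicate 1 the call above was lost (adjusted p = 0.0566, 0.0534 and 0.0537). Tmem119 is also known from bone-forming cells. Of the fibroblast markers 8 of 8 were higher at the epicenter, beside 31.9% of all rows. They summed to 2572 to 3746 CPM there, 504.7 to 1854 CPM below and 122 to 141 CPM in uninjured cord. Their part in the result was not tested.

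Olfml3, a secreted olfactomedin-like protein, had the widest range of the 9 as a ratio of the highest to the lowest library. Uninjured libraries held 10.3, 12.6, 11.5 and 12.0 CPM, above libraries 38.7, 28.0, 29.2 and 24.4, epicenter libraries 117, 95.4, 114 and 75.7, and below libraries 64.5, 33.2, 127 and 54.5. All injured libraries were higher than all uninjured ones, and below replicate 3 was the highest of the 16. Olfml3 rose 8.65-fold at the epicenter (3.11 ± 0.31, adjusted p = 1.51e-06), 2.59-fold above (1.37 ± 0.30, adjusted p = 0.0174) and 6.02-fold below (2.59 ± 0.31, adjusted p = 1.63e-05). The call above was lost without uninjured replicate 1, 3 or 4 or above replicate 1 (adjusted p = 0.0663, 0.0591, 0.0521 and 0.0603) and with limma-voom (adjusted p = 0.0595).

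Siglech, a sialic acid-binding lectin found on microglia and on plasmacytoid dendritic cells, differed from these. It held 11.5, 10.4, 10.0 and 10.3 CPM without injury, 18.2, 16.1, 17.5 and 15.1 above, 13.7, 10.4, 13.8 and 13.2 at the epicenter, and 15.3, 14.9, 3.19 and 14.0 below. Below replicate 3 was lower than every uninjured library, whereas the other 3 below libraries were higher than all of them. With all libraries Siglech was not called in any segment, at log2 fold changes of 0.67 ± 0.31 above (adjusted p = 0.343), 0.28 ± 0.31 at the epicenter (adjusted p = 0.454) and 0.17 ± 0.31 below (adjusted p = 0.694). Without below replicate 3 it was called higher in all 3 segments, at 0.67 above (adjusted p = 0.000195), 0.28 at the epicenter (adjusted p = 0.0147) and 0.48 below (adjusted p = 0.00128). Of the 7 markers of plasmacytoid dendritic cells, 6 were higher at the epicenter and 1, Pacsin1, lower, beside 31.9% and 29.3% of all rows. Klra17 had 0 counts in all uninjured and above libraries and 5 to 28 counts in the others. Their summed level is set by Pacsin1, which neurons also express, and ran from 372 to 399.6 CPM without injury, 372 to 384 CPM above, 149 to 217 CPM at the epicenter and 80.4 to 329 CPM below, and its part in the Siglech values was not tested.

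Sall1, a zinc finger transcription factor that maintains microglial identity, showed no called difference in any comparison. Uninjured libraries held 50.0, 52.5, 50.9 and 51.7 CPM, above libraries 49.5, 55.0, 59.0 and 63.5, epicenter libraries 56.2, 49.1, 64.3 and 46.2, and below libraries 51.3, 50.8, 70.6 and 50.3. All groups overlapped, and the highest value, below replicate 3, stood alone in its group. The log2 fold changes were 0.15 ± 0.12 above (adjusted p = 0.65), 0.07 ± 0.12 at the epicenter (adjusted p = 0.613) and 0.12 ± 0.12 below (adjusted p = 0.441). The value at the epicenter went to -0.02 without epicenter replicate 3, and the value below to -0.01 without below replicate 3.

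The segments of injured cord were then compared with each other. Against the segment above, the epicenter was higher for 6 of the 9 genes, where 28.3% of all rows were called higher and 24.4% lower. For the same 6 genes all epicenter libraries lay above all above libraries, as for 26.6% of all rows. The log2 differences were 1.74 ± 0.30 for Olfml3, 1.02 ± 0.21 for Cx3cr1, 0.98 ± 0.15 for Tmem119, 0.82 ± 0.17 for P2ry13, 0.82 ± 0.18 for Gpr34 and 0.78 ± 0.16 for Csf1r, with adjusted p between 0.000157 and 0.0021. Siglech was lower in all 4 epicenter libraries than in all 4 above libraries, as were 24.2% of all rows (log2 difference -0.39 ± 0.31, adjusted p = 0.309), and was called lower without below replicate 3 (adjusted p = 0.00183). P2ry12 was not called (-0.19 ± 0.10, adjusted p = 0.118), nor was Sall1 (-0.07 ± 0.12, adjusted p = 0.632).

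Between the epicenter and the segment below, Tmem119 alone of the 9 was called, higher at the epicenter by 0.79 ± 0.15 on the log2 scale (adjusted p = 0.00521), where 11.0% of all rows were called higher and 10.2% lower. Its 4 epicenter libraries lay above the 4 below libraries, as for 8.73% of all rows, and in a fit of these 8 libraries alone it was not called (adjusted p = 0.0671). Without below replicate 3 the count of genes higher at the epicenter was 6, with log2 differences of 0.98 for Olfml3, 0.97 for Tmem119, 0.73 for Cx3cr1, 0.65 for Gpr34, 0.61 for P2ry13 and 0.51 for Csf1r. Between above and below, Olfml3 (-1.22 ± 0.29, adjusted p = 0.00915), Cx3cr1 (-0.61 ± 0.21, adjusted p = 0.0416) and Csf1r (-0.48 ± 0.16, adjusted p = 0.0443) were called lower above and none higher, with 15.2% of all rows lower and 9.11% higher. Olfml3 was called with each single library left out, but not in a fit of these 8 libraries alone (adjusted p = 0.0791). The calls of Cx3cr1 and Csf1r were lost without any 1 of the uninjured or above libraries, without epicenter replicate 1 or 2, or without below replicate 1, 3 or 4, where adjusted p lay between 0.0502 and 0.125. Both were also lost without the filter on low counts (adjusted p = 0.0568 and 0.068), with limma-voom (0.0661 and 0.0573) and in a fit of these 8 libraries alone (0.158 and 0.146). Without below replicate 2 the count was 5, with P2ry13 (adjusted p = 0.0111) and Gpr34 (adjusted p = 0.0139) added. By mean level the order of the groups was epicenter, below, above and uninjured for P2ry13, Tmem119, Cx3cr1, Csf1r, Gpr34 and Olfml3. With all libraries, the test separated the epicenter from the segment below for Tmem119 alone. It separated the segments below and above for Olfml3, Cx3cr1 and Csf1r only, with the losses of calls just given. Without below replicate 3 the Tmem119 mean was 23.48 CPM in the segment below, beside 23.45 CPM in the segment above.

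By the median of the 9 genes, libraries varied more within each injured segment than within uninjured cord. The coefficient of variation of the 9 genes had a median of 6.06% without injury, 8.46% above, 14.7% at the epicenter and 29.9% below. For P2ry13 it was instead lower above the injury, at 3.47% beside 12.2% without injury. Injured pieces were 3 mm long and uninjured ones 9 mm, so injury and piece size cannot be told apart here. The spread over all rows was not computed. Without below replicate 3 the median below was 15.8%. Epicenter replicate 3 was the highest of its group for 8 of the 9 genes and replicate 4 the lowest for 7. Below replicate 3 was the highest of its group for 7 genes and the lowest for P2ry12 and Siglech. Without it the below means were 222 ± 39.4 CPM for Csf1r, 96.7 ± 19.8 CPM for Cx3cr1 and 50.8 ± 16.0 CPM for Olfml3 (n = 3).

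Because Csf1r is carried by microglia, monocytes and other macrophages alike, each of the other 8 genes was also expressed as a percentage of the Csf1r counts of the same library, which does not depend on library scaling. For P2ry12 this share was 25.3 ± 2.40% without injury, 15.5 ± 1.95% above, 7.92 ± 0.862% at the epicenter and 9.94 ± 3.06% below. Sall1 went from 60.8 ± 1.61% to 30.9 ± 3.22%, 17.1 ± 0.997% and 22.5 ± 4.02% in the same order. Siglech went from 12.5 ± 1.21% to 9.09 ± 0.730%, 4.10 ± 0.772% and 5.31 ± 3.14%, with 0.894% in below replicate 3. For these 3 genes every library of each injured segment lay below every uninjured library. Csf1r rose in CPM in each segment, so any gene that rose less has a lower mean share. How many of all rows did so was not counted.

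The other ratios differed less or in the other direction. P2ry13 was at 8.88 ± 1.38% of Csf1r without injury, 6.96 ± 0.573% above, 7.13 ± 0.518% at the epicenter and 6.72 ± 0.479% below, and Gpr34 at 9.20 ± 0.684%, 8.42 ± 1.04%, 8.65 ± 0.856% and 7.96 ± 1.33%. Tmem119 was at 16.7 ± 0.660%, 12.8 ± 1.90%, 14.7 ± 1.65% and 10.5 ± 0.468%. Cx3cr1 stayed within 43.3% and 50.8% in the group means. Every epicenter library (49.3 to 52.6%) was higher for it than every uninjured one (42.7 to 45.8%). Olfml3 went from 13.7 ± 0.870% without injury to 16.4 ± 3.43% above, 31.6 ± 1.47% at the epicenter and 25.7 ± 7.16% below.

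With 4 libraries against 4, the exact two-sided permutation test cannot give a p under 0.0286, and after adjustment over the 48 ratio tests that p becomes 0.0571, so 0 of the 48 passed. At this smallest p were 24 of the 48 tests, 17 of them with the lower ratio in the first-named group and 7 with the higher. The share of all rows whose ratio to Csf1r reaches this p was not counted, so the number 24 describes these genes only. The log2 ratios to Csf1r differed between epicenter and uninjured cord by -1.83 for Sall1, -1.68 for P2ry12, -1.62 for Siglech and 1.20 for Olfml3, each at the smallest p of the exact permutation test. When the counts were set against Aif1 or Ptprc, markers of microglia and macrophages and of all leukocytes, the ratios of P2ry12, Sall1 and Siglech were also lower in every segment than in uninjured cord, by -0.82 to -3.34 on the log2 scale (adjusted p = 0.0429 with Aif1 and 0.0392 with Ptprc by the exact permutation test). An adjusted p of 0.0571, 0.0429 or 0.0392 stands here for the same unadjusted 0.0286. It differs only with how many of the 48 tests of a denominator were at that smallest p. These lower ratios add no separate result, because Csf1r, Aif1 and Ptprc were called higher in each segment and the 3 genes changed less in CPM. For Cx3cr1 the ratio to Csf1r was higher in every epicenter library than in every uninjured one. Its log2 ratios to Aif1 and Ptprc were instead lower at the epicenter, by -1.20 and -1.30 (adjusted p = 0.0429 and 0.0392, exact permutation test). These values add no separate result either, because Aif1 and Ptprc rose more than Cx3cr1 at the epicenter. For Olfml3, whose ratio to Csf1r was higher at the epicenter, the values against Aif1 and Ptprc were -0.20 and -0.31 and did not pass (adjusted p = 0.249 and 0.268, exact permutation test).

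**Figure D3:**
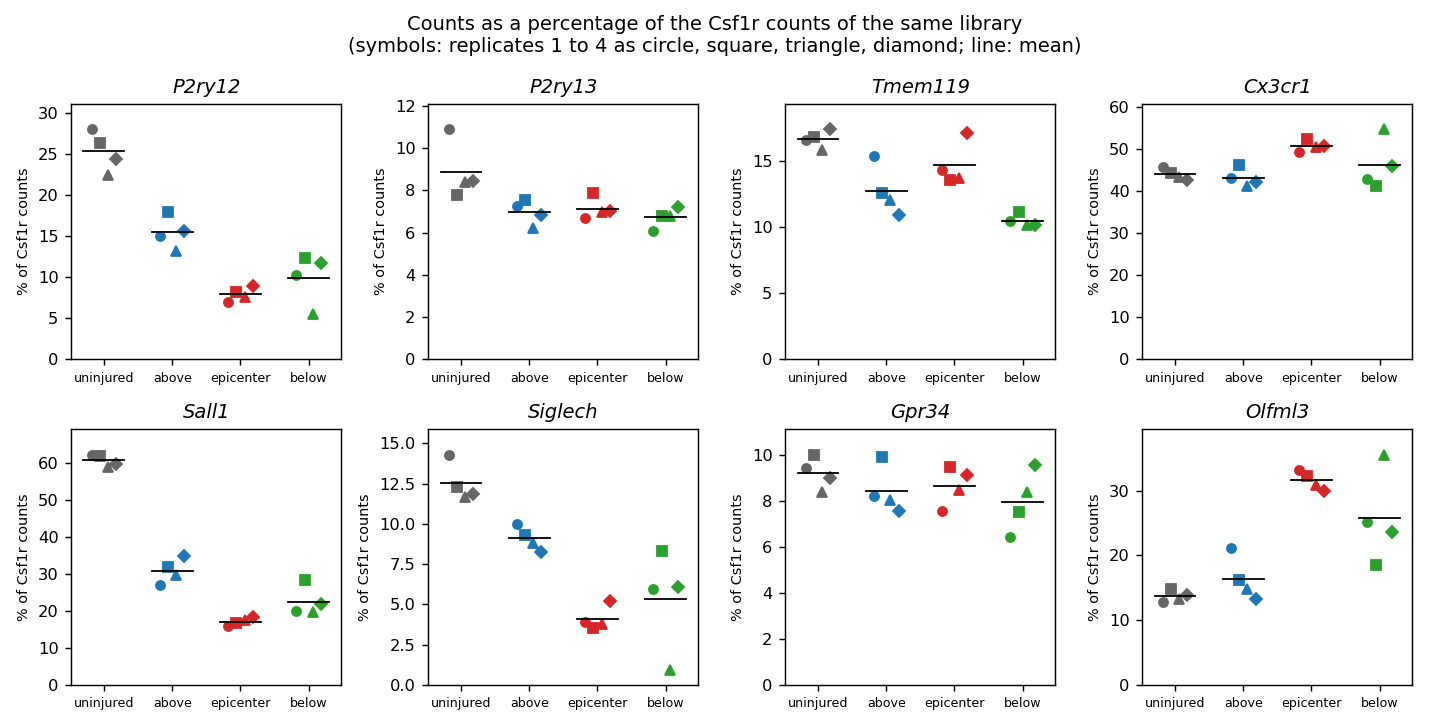
Counts of 8 genes as a percentage of the Csf1r counts of the same library, not adjusted for gene length, by group; symbols mark replicates 1 to 4 and the line is the mean (n = 4). P2ry12, Sall1 and Siglech lie lower in all injured libraries than in the uninjured ones, and Olfml3 goes from 13.7% in uninjured cord to 31.6% at the epicenter.

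Compared per length, as CPM per kb, Csf1r was the highest of the 9 genes in uninjured cord at 17.3 ± 0.590, ahead of Cx3cr1 (9.93 ± 0.111), Sall1 (9.76 ± 0.206) and P2ry12 (8.97 ± 0.604). Cx3cr1 and Sall1 were close enough for their ranges to meet. Tmem119 followed at 6.08 ± 0.336 CPM per kb, and Gpr34, Siglech, P2ry13 and Olfml3 lay between 2.89 and 3.71. At the epicenter the order was Csf1r at 64.8 ± 10.7, Cx3cr1 at 43.0 ± 6.68, Olfml3 at 25.0 ± 4.73, Tmem119 at 19.9 ± 2.24 and Gpr34 at 13.0 ± 1.59 CPM per kb. P2ry12 (10.4 ± 0.885), Sall1 (10.3 ± 1.54) and P2ry13 (8.92 ± 1.31) overlapped there, and Siglech was lowest at 3.78 ± 0.476. Olfml3 had the lowest mean of the 9 in uninjured cord, where its range overlapped those of P2ry13 and Siglech, and at the epicenter its mean came next after Csf1r and Cx3cr1, with a range that overlapped that of Tmem119.

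Across the 16 libraries, which share their group structure and scaling, the log2 CPM of Csf1r, Cx3cr1, P2ry13, Gpr34, Tmem119 and Olfml3 correlated with one another at Pearson's r between 0.933 and 0.992. P2ry12 correlated with these 6 at r between 0.224 and 0.351, Sall1 at r between 0.256 and 0.395, and Siglech at r between -0.163 and -0.0422. Without below replicate 3 (15 libraries) these ranges were 0.391 to 0.564 for P2ry12, 0.114 to 0.262 for Sall1 and 0.323 to 0.490 for Siglech, while the 6 genes kept r between 0.934 and 0.993 with one another. Among 17539 other genes with a mean of at least 1 CPM, the most like Cx3cr1 were Itgam (r = 0.998), an integrin of myeloid cells, and Fcrls (r = 0.997), an Fc receptor-like gene of mouse microglia. Olfml3 was most like Unc93b1 (0.997) and Cyth4 (0.996), Csf1r most like Fcgr1 (0.993) and Cd14 (0.992), P2ry13 most like Il1a (0.990) and Rhoh (0.987), and Gpr34 most like Milr1 (0.990) and Tlr2 (0.989). Tmem119 was most like Prrx2 (0.981) and Ptgs1 (0.980), and Sall1 most like Cdk5rap2 (0.946) and Mtmr10 (0.928). Siglech was most like Dmrt2 (0.918) and Crybb1 (0.889), at 0.703 and 0.658 without below replicate 3, and P2ry12 had no close match, with Celrr (0.753) and Gm9169 (0.739) nearest.

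Other genes of the resting microglial programme were read beside the 9. For this list and those that follow, the shares of all rows called higher and lower were 31.9% and 29.3% at the epicenter. They were 3.09% and 0.446% above, and 23.6% and 15.7% below. Of 17 further homeostatic genes, 13 were higher and 1 lower at the epicenter (median log2 fold change 1.89), 7 higher and none lower above (0.67), and 13 higher and 1 lower below (1.45). Fcrls rose from 8.91 to 138 CPM at the epicenter (log2 fold change 3.95 ± 0.49, adjusted p = 8.61e-06), and P2ry6, a receptor for uridine diphosphate linked to phagocytosis, from 1.24 to 18.6 CPM (3.91 ± 0.38, adjusted p = 1.1e-06). Slc2a5, a fructose transporter that marks microglia in brain, was the gene that fell, from 3.10 to 1.80 CPM at the epicenter (-0.78 ± 0.28, adjusted p = 0.024) and to 1.75 CPM below (-0.82 ± 0.28, adjusted p = 0.0295). Sall3, a relative of Sall1, had 23.8 CPM without injury, 19.2 CPM at the epicenter and no call (adjusted p = 0.123). The count above moved to between 2 and 4 without any 1 of the uninjured libraries or above replicate 1 or 2, and to 13 without below replicate 3. The count of 1 lower gene went to 0 or 2 at the epicenter without uninjured replicate 3 or 4, epicenter replicate 2 or 3 or below replicate 3, and to 0 below without uninjured replicate 3 or 4 or below replicate 4.

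Of 17 ligands and regulators of the programme, 15 were higher and 1 lower at the epicenter (median 1.91), 8 higher above (0.79), and 16 higher and 1 lower below (1.81). Tgfb1 rose from 3.82 to 38.3 CPM at the epicenter (3.32 ± 0.34, adjusted p = 1.68e-06), and its receptors Tgfbr1 and Tgfbr2 by 1.63 ± 0.28 and 2.59 ± 0.23 on the log2 scale (adjusted p = 0.000146 and 6.65e-07). The transcription factor genes Spi1, Irf8 and Runx1 rose by 3.51 ± 0.30, 3.72 ± 0.34 and 3.93 ± 0.34, and Tyrobp, the signalling adaptor of Trem2, by 4.70 ± 0.43 (adjusted p = 7.92e-07). Mef2a, a transcription factor with broad expression, was not called at the epicenter (0.16 ± 0.12, adjusted p = 0.255). The count above was 3 to 5 without any 1 of the uninjured or above libraries.

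Markers of other states and cells also differed between the groups. Of 20 disease-associated microglia genes, all were higher at the epicenter (median 3.96) and below (3.49), and 13 above (1.78). Gpnmb, a glycoprotein of lipid-laden phagocytes, rose from 2.71 to 974 CPM at the epicenter (8.49 ± 0.78, adjusted p = 8.11e-07). All 8 pan-myeloid genes were higher in each segment, with medians of 3.37 at the epicenter, 1.58 above and 2.87 below. Some lists share genes, such as Tyrobp among the pan-myeloid genes and the ligands and regulators, so their counts and medians are not independent. Aif1 rose by 3.30 ± 0.28 and Ptprc by 3.45 ± 0.37 at the epicenter, each with a higher log2 value than any of the 9 genes. The highest of the 9, Olfml3 at 3.11, lay within these SEs, and its ratios to Aif1 and Ptprc did not pass.

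The markers of incoming monocytes and of border macrophages were part of that. Of 10 monocyte markers, 9 were higher at the epicenter and below and 3 above, and their summed level ran from 38.6 to 45.9 CPM without injury, 48.7 to 65.9 above, 115 to 173 at the epicenter and 62.3 to 159 below. Most of the sum without injury was Vcan, at 2406 to 2953 counts per uninjured library. Vcan had 2419 to 4830 counts per epicenter library and 8497 in below replicate 3. The median log2 fold change of the list at the epicenter was 5.29. Ccr2, the receptor that brings monocytes to sites of injury, went from 2 to 25 counts per uninjured library to 429 to 638 per epicenter library. Of 10 border macrophage markers, 10 were higher at the epicenter and below and 2 above, with summed levels of 16.1 to 19.6 CPM without injury, 34.1 to 67.1 above, 226 to 324 at the epicenter and 84.1 to 456 below. The counts above rested on single libraries, with 1 monocyte marker called without uninjured replicate 3 or 4 or above replicate 1 and 5 without below replicate 3. For border macrophages the count was 1 without any 1 uninjured or epicenter library, above replicate 1 or 3 or below replicate 1 or 4, 4 without below replicate 2 and 5 without below replicate 3. No marker of either list was at 0 in a whole group. Neuron markers, 7 of 8 lower at the epicenter (4 without epicenter replicate 3), summed to 8576 to 9204 CPM in uninjured cord and 2818 to 5284 CPM at the epicenter. The part of these cells in the values of the 9 genes was not tested.

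**Figure D4:**
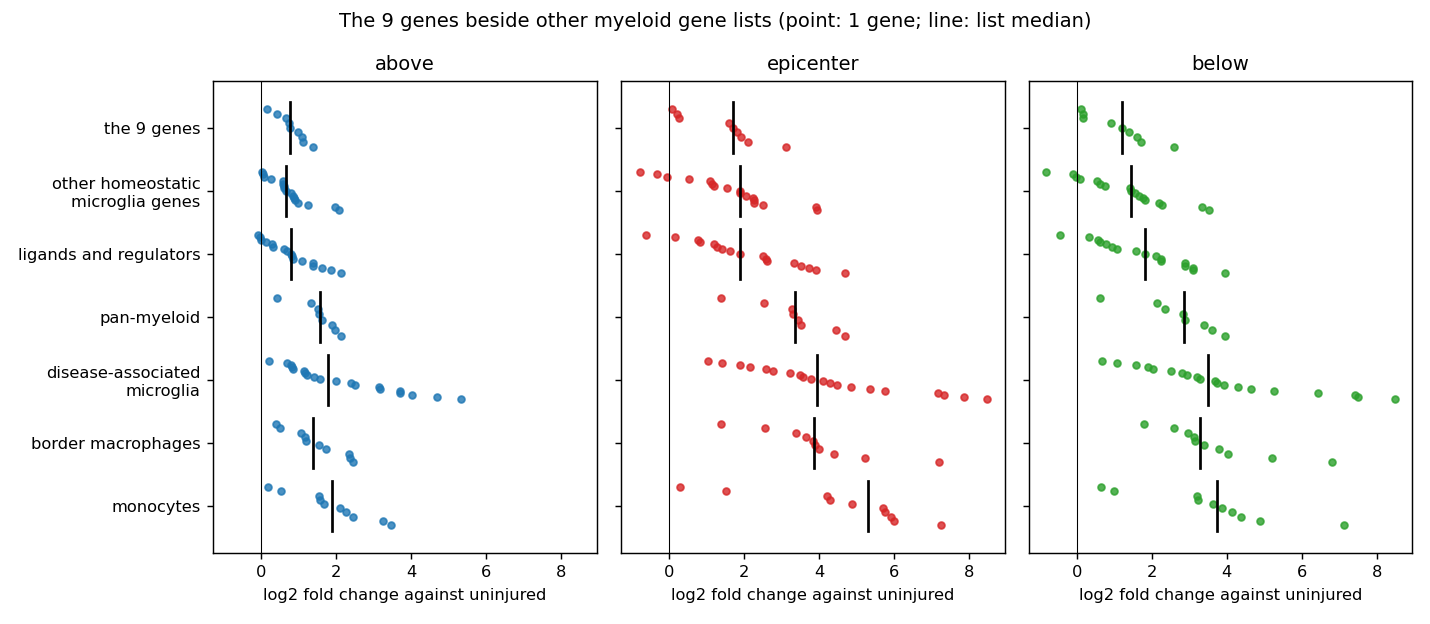
Log2 fold change against uninjured cord of the 9 genes and of 6 other gene lists in each segment; each point is 1 gene and the line is the list's median. Some lists share genes, such as Tyrobp. The median of the 9 genes at the epicenter was 1.71, beside 1.89 for other homeostatic genes, 3.37 for pan-myeloid genes and 5.29 for monocyte markers.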

How the data were processed

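Total RNA of 16 spinal cord pieces was extracted with RNA Stat60, and libraries were made with the Illumina TruSeq kit v2, per the labels' protocols. Kits of this type leave the strand unmarked. Raw read counts per gene were deposited by the authors in 1 column per library, without normalization, per the file headers. TopHat2 2.0.12, Subread 1.4.4, edgeR and the build mm10 are named in the submitters' processing notes. The annotation release, strand setting and treatment of multi-mapped reads were not given in the sources used here.

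From these counts, edgeR 4.0.16 in R 4.3.3 was run with filterByExpr by group (43346 rows, 23769 kept with at least 99.97% of every library's counts), TMM factors and the quasi-likelihood test, fitting the 16 libraries together by group. Benjamini-Hochberg adjustment covered all tested rows. Each SE was taken as the absolute log2 fold change divided by the square root of its F value. These steps were also tested on simulated data. In a single library a count of 3, which a count of 0 allows at 95% confidence, is 0.0316 to 0.0485 CPM, for counting error only. No replicate pair agreed within sampling noise (lowest chi-square over degrees of freedom 6.57). Ratios used counts plus 0.5 and exact permutation tests. Alternatives were other scalings, no filter beyond 1 count, DESeq2 1.42.0, limma-voom (limma 3.58.1), fewer libraries, a replicate block, and Aif1 or Ptprc as denominators. The alternatives for the other gene lists, and the correlations and coefficient of variation without below replicate 3, were chosen after seeing the data.

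The 9 genes and the 13 lists (132 entries, 131 used, since the name Clec7a repeats in the table) were chosen with earlier results of these data known. Names from another list of 8 or more measured members were taken from the 2 highest and 2 lowest log2 fold changes at the epicenter, and any ligand or regulator could be named. Genes around P2ry12, Hmgxb3, Aif1, Ptprc, Ccr2, Pacsin1 and Klra17 were named besides, after their values were seen. Gene ranges are those of the deposited table, exon overlaps come from GENCODE M21 on GRCm38, and promoters from RefSeq on GRCm38.p6.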

Additional observations from a re-analysis of the deposited data

Results flagged for a closer look

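In 3 of the 36 combinations of gene and group, 1 of the 4 libraries lay so far from the others that its gap to the nearest, over the range of the group, passed Dixon's 95% critical value for 4 values, and chance alone gives about 1 in 20. For Sall1 below the injury, replicate 3 was highest (70.6 CPM, the others 50.3 to 51.3) with a gap of 0.954 of the range. For Siglech below the injury, the same replicate 3 was lowest (3.19 CPM, the others 14.0 to 15.3), at 0.893. At the epicenter, Siglech was lowest in replicate 2 (10.4 CPM, the others 13.2 to 13.8), at 0.834.

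Because all segments were set against the same uninjured libraries, a called difference between segments is also a difference between their changes. It was tested directly in the fit of all libraries. The epicenter was higher than the segment above by log2 differences of 1.74 for Olfml3, 1.02 for Cx3cr1, 0.98 for Tmem119, 0.82 for P2ry13, 0.82 for Gpr34 and 0.78 for Csf1r. It was higher than the segment below by 0.79 for Tmem119. The segment above differed from that below by -1.22 for Olfml3, -0.61 for Cx3cr1 and -0.48 for Csf1r. In edgeR fits of only the 8 libraries compared, Tmem119 at epicenter against below and Olfml3 at above against below were not called (adjusted p = 0.0671 and 0.0791). The Cx3cr1 and Csf1r calls at above against below were each lost in 17 of 25 alternatives.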

How the results depend on the processing

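Against uninjured cord, the counts of genes called higher were 6 to 8 at the epicenter and 6 to 7 below under the alternatives run. Above the injury 7 became 4 with limma-voom and ranged from 3 (without uninjured replicate 3 or above replicate 1) to 8 (without below replicate 3). Epicenter against above, 1 gene, Siglech, was lower with only the 8 libraries compared and without above replicate 1 and below replicate 3 together, and 0 to 1 without single libraries. Epicenter against below, 0 genes were higher with only the 8 libraries compared, 6 without both libraries and 1 to 6 without single ones. Above against below, 1 was higher with DESeq2 and 0 to 1 without single libraries, while the 3 lower became 1 without the filter, with limma-voom and without both libraries, 0 with only the 8 libraries compared, and 1 to 5 without single ones. Of the values per gene, 1244 kept direction and call, 31 gained a call, 58 lost it and 17 changed sign. With library totals without factors, the median log2 fold change of all rows was 0.14 below against uninjured and -0.12 above against below. In the other comparisons it lay between -0.061 and 0.064. The lowest sum of a member's counts over the 4 libraries of a group was 2087.

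With the replicate block, 6 genes instead of 7 were higher above the injury (P2ry12, log2 fold change 0.41, edgeR adjusted p = 0.0559), and the counts elsewhere were the same. The labels do not pair the numbers, and the correlations of same-numbered libraries' deviations among the injured segments ran from -0.0895 to 0.309. Each epicenter library correlated best with the below library of its own number, which is a hint from the data and not the design.

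The changes of sign were all in uncalled fold changes. With library totals P2ry12 was -0.022 at epicenter against below and Sall1 -0.071 at above against below. With limma-voom Siglech was -0.063 below against uninjured. Without above replicate 1 and below replicate 3 together Sall1 was -0.012 below against uninjured, and at epicenter against below P2ry12 was -0.018, Sall1 0.087 and Siglech -0.20. Without single libraries Sall1 ran from -0.022 to 0.14 at epicenter against uninjured, -0.012 to 0.17 below against uninjured, -0.14 to 0.086 at epicenter against below and -0.021 to 0.16 at above against below. At epicenter against below P2ry12 ran from -0.018 to 0.13 and Siglech from -0.20 to 0.26.

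The log2 ratios changed sign mainly with the denominator. With Aif1, the epicenter against above gave -1.01 for P2ry13, -0.83 for Tmem119, -0.81 for Cx3cr1, -0.9997 for Gpr34 and -0.073 for Olfml3. The epicenter against below gave -0.64, -0.24, -0.58, -0.59 and -0.39 for the same genes and -0.72 for Siglech. Cx3cr1 was at -1.20 at the epicenter and -0.62 below against uninjured and at 0.23 above against below, and Olfml3 at -0.20 at the epicenter and -0.13 above against uninjured. With Ptprc, the epicenter against above gave -0.72 for P2ry13, -0.54 for Tmem119, -0.52 for Cx3cr1 and -0.71 for Gpr34. Cx3cr1 was at -1.30 at the epicenter, -1.58 below and 0.80 above against below, and Olfml3 at -0.31, -0.52 above and -0.78 below against uninjured and 0.26 above against below. A pseudocount of 5 counts gave -0.0024 for Siglech at epicenter against below. The cause of these changes was not tested.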
